A study of Mus musculus with 2 samples.

Results

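A set of 10 genes of MHC class I antigen processing was followed in bulk RNA-seq of mouse mammary basal cells grown in 3D culture with or without TNF-α. The 10 genes were chosen by name among the 49492 genes of the deposited count table, and all 10 had a row. They are the heavy chain genes H2-K1 and H2-D1, the light chain gene B2m, the peptide transporter genes Tap1 and Tap2, the tapasin gene Tapbp, the immunoproteasome genes Psmb8, Psmb9 and Psmb10, and the transactivator gene Nlrc5. There was 1 control library, from wild-type basal cells with no added treatment, and 1 TNF-α library, from wild-type basal cells that received recombinant mouse TNF-α at 10 ng/mL. Both were grown for 10 days in a matrix gel, in medium with EGF and the supplement ITS. The cells came from adult female mice, and the study's methods give an age of 8 to 10 weeks for the glands. The basal cells had been sorted as CD24+CD29hi after removal of cells with CD45, CD31 or TER119. The mouse strain and the number of mice pooled for these cultures were not given in the sources used here.

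MHC class I molecules show peptides from inside the cell to CD8 T cells. The proteasome cuts proteins into peptides, the TAP transporter carries the peptides into the endoplasmic reticulum, and tapasin holds empty class I molecules at the transporter until a peptide binds. The heavy chain then leaves for the cell surface together with β2-microglobulin. TNF-α and interferons are known to raise transcription of these genes in many cell types, in part through NF-κB, IRF1 and NLRC5.

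The counts summed to 44462275 in control cells and 53487087 in TNF-α-treated cells. Library sizes were scaled by the TMM method, which assumes that most genes do not change, and values are given as CPM, the count divided by the scaled library size in megareads. A log2 fold change is that of TNF-α over control with a prior count of 2, and 20771 genes with at least 10 counts over both libraries were compared. A count of 10 is worth 0.224 CPM in control cells and 0.187 CPM in TNF-α-treated cells. With 1 library per group there was no replicate check and no test between the conditions. The 95% intervals, by the Clopper-Pearson method, describe the error of counting and no other, since amplified reads carry no molecular identifier and several may stem from 1 molecule. In these bulk samples, fewer cells of a type and less RNA per cell cannot be told apart.

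The promoters of the heavy and light chain genes are shown first, because these genes form the surface molecule and all of their promoters held κB-type letters. The bases are from RefSeq on GRCm38.p6, which had a promoter for 8 of the 10 genes, and run 5′ to 3′ on the gene's strand. Capitals mark matches to a κB-type motif (GGG, any pair of bases, T, any pair of bases, CC), an ISRE-type motif (TTTC, any pair of bases, TTTC), a GAS-type motif (TTCNNNGAA) or a Y box (ATTGG) on either strand. The H2-K1 stretch is chr17:34000348-34000547 on the minus strand, the H2-D1 stretch is chr17:35262921-35262950 on the plus strand, and the B2m stretch is chr2:122147507-122147685 on the plus strand.
H2-K1: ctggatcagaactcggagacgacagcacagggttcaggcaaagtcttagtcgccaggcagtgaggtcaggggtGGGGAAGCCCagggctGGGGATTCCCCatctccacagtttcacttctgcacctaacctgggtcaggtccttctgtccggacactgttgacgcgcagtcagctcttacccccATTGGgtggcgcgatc
H2-D1: ctGGGGATTCCCCatctcctcagtttcact
B2m: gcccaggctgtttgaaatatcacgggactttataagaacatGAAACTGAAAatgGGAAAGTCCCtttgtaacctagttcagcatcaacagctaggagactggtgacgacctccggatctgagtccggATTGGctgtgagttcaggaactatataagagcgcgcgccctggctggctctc

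The κB-type letters were in the 300-base promoter window of 3 of the 8 genes, H2-K1, H2-D1 and B2m, and in 18.4% of the 32851 promoter windows of the table. In H2-K1 and H2-D1 the same κB-type run stands upstream of the RefSeq start. For H2-D1 that start is at 35263094, inside the span of the gene in the deposited annotation, so the printed stretch lies within that span. The promoter windows of Tapbp, Psmb8 and Psmb9, with RefSeq starts at 33919478, 34198195 and 34187330, likewise lie within the spans of these genes. Over the 250 bases before the start, 166 of 190 aligned bases were identical between H2-K1 and H2-D1 (87.4%). Of the 8 genes with a promoter, B2m alone held the ISRE-type letters, which were in 3.44% of all windows, and Psmb8 alone held the GAS-type letters, which were in 8.30%. A Y box was in 6 of the 8 and in 37.4% of all windows, and Tap1 and Psmb9 hold the same one between them. In the run that H2-K1 and H2-D1 share, κB-type matches overlap one another, while each window also holds κB-type matches that stand alone. Matches to different motifs did not overlap in the stretches printed. A match describes letters and is not evidence of binding. Only exact letters were counted, so a promoter without a match may still hold a variant of the element. In the H2-K1 stretch, for example, the lower-case run tttcacttct is close to the ISRE-type letters but was not counted.

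All 10 genes were higher in TNF-α-treated cells, and 7 of them were more than 2-fold higher. Of all 20771 genes compared, 8.56% passed 2-fold upward and 6.62% passed it downward, and of the 13609 genes with at least 200 counts, 4.01% were more than 2-fold higher. The 10 genes had from 666 counts upward over both libraries, so the last share is the closer background. Their median log2 fold change was 1.63, against 0.0038 over all genes compared. Of the genes with at least 200 counts, 251 (1.84%) lay above that median. Summed over the 10 genes, the level was 941 CPM in control cells and 2830 CPM in TNF-α-treated cells.

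**Figure D1:**
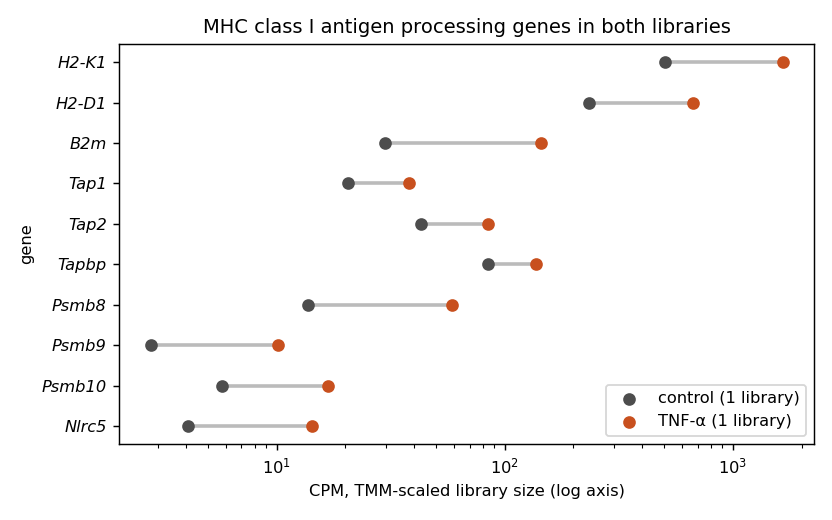
Level of each of the 10 genes (CPM with TMM-scaled library sizes, log axis) in control cells (grey) and TNF-α-treated cells (orange), 1 library each. Every gene lies further right with TNF-α, from 1.63-fold for Tapbp to 4.82-fold for B2m.

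The heavy chain genes gave most of these reads. H2-K1, which lies on chromosome 17 of the GRCm38 build from 33996017 to 34000333, gave 22431 counts in control cells and 88404 in TNF-α-treated cells. That is 503 CPM and 1657 CPM, a log2 fold change of 1.72 (counting interval 1.70 to 1.74). H2-K1 stood 310th among all genes by counts in control cells and 45th in TNF-α-treated cells, so it was among the most abundant transcripts of these cultures. H2-D1, on chromosome 17 from 35262730 to 35267499, had 10406 and 35679 counts, or 233 CPM and 669 CPM. Its log2 fold change was 1.52 (counting interval 1.49 to 1.55), a little under that of H2-K1. Both genes belong to a family of near copies that differ between mouse strains, so their counts are uncertain where reads can be shared with relatives or fail to match the reference.

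B2m encodes β2-microglobulin, the light chain that every class I heavy chain pairs with, and lies outside the MHC on chromosome 2 from 122147686 to 122153083. It had 1333 counts in control cells and 7707 in TNF-α-treated cells, or 29.9 CPM and 144 CPM. Its log2 fold change of 2.27 (counting interval 2.19 to 2.36) was the highest of the 10 genes, and its interval overlapped that of Psmb8 but not that of either heavy chain gene. In a comparison chosen after the values were seen, heavy chain counts per kilobase, summed over H2-K1 and H2-D1, were 8.15 times those of B2m in control cells and 5.33 times in TNF-α-treated cells. The light chain transcript thus stood nearer to the heavy chain transcripts with TNF-α. Dividing by the longest coding transcript instead of the summed exons gave 12.1 and 7.99, in the same order.

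**Figure D2:**
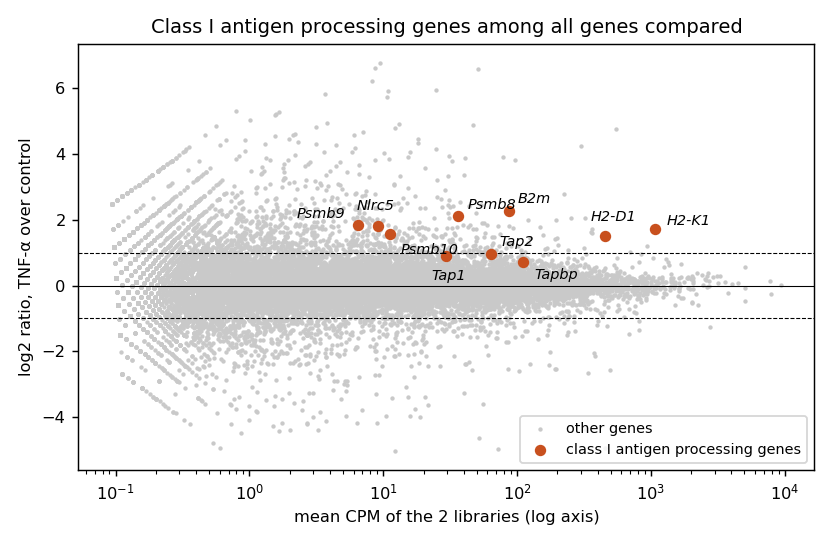
Log2 fold change of TNF-α over control against mean CPM of both libraries (log axis) for the 20771 genes compared (grey) and the 10 class I antigen processing genes (orange), with dashed lines at 2-fold. Of the 10 genes, 7 lie above the upper dashed line, while Tap1, Tap2 and Tapbp lie between it and 0.

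The genes of peptide transport and loading had the smallest ratios. TAP1 and TAP2 form the ATP-driven peptide transporter. Tap1, on chromosome 17 from 34187553 to 34197225, had 915 and 2027 counts in control and TNF-α-treated cells, or 20.5 CPM and 38.0 CPM, a log2 fold change of 0.89 (counting interval 0.77 to 1.002). Tap2, on chromosome 17 from 34203527 to 34216321, had 1916 and 4495 counts, or 43.0 CPM and 84.2 CPM, a log2 fold change of 0.97 (counting interval 0.89 to 1.05). The intervals of the transporter genes overlapped each other, and both spanned the 2-fold line. Tapbp, which encodes the chaperone tapasin and lies on chromosome 17 from 33915899 to 33929288, had 3761 and 7344 counts, or 84.4 CPM and 138 CPM. Its log2 fold change of 0.71 (counting interval 0.65 to 0.76) was the lowest of the 10 genes.

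Tap2 and Tapbp also share more of their exon bases with other genes than the rest. In the deposited annotation 18.5% of the exon bases of Tap2 lie under exons of Gm15821 or Gm20496 on the opposite strand. For Tapbp the share was 22.03%, mostly with Gm19412 on the opposite strand. Gm15821 had a log2 fold change of 0.88, Gm20496 one of 1.75 and Gm19412 one of 0.68. Whether counting used the strand was not given in the sources used here, so reads of a gene and its antisense partner cannot be told apart. RP23-228B2.5, on the strand opposite to the basal marker gene Tagln, overlaps 62.4% of the exon bases of Tagln. It had 40626 counts in control cells and 38838 in TNF-α-treated cells, near the 39710 and 38343 of Tagln. The same reads may thus count for both partners, and the values of Gm15821, Gm20496 and Gm19412 may not be separate from those of Tap2 and Tapbp.

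PSMB8, PSMB9 and PSMB10 are the inducible catalytic subunits that turn the proteasome into the immunoproteasome, which favours peptides that fit class I molecules. Psmb8, on chromosome 17 from 34197721 to 34201454, had 610 and 3142 counts in control and TNF-α-treated cells, or 13.7 CPM and 58.9 CPM, a log2 fold change of 2.10 (counting interval 1.98 to 2.23). Psmb9, on chromosome 17 from 34181988 to 34187764, had 125 and 541 counts, or 2.80 CPM and 10.1 CPM, a log2 fold change of 1.84 (counting interval 1.57 to 2.15). Psmb10, on chromosome 8 from 105935735 to 105938444, had 255 and 898 counts, or 5.72 CPM and 16.8 CPM, a log2 fold change of 1.55 (counting interval 1.35 to 1.76). Each passed 2-fold upward, at levels well under those of the heavy chains.

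Psmb9 and Tap1 stand head to head, with 225 bases between their RefSeq starts at 34187330 and 34187556. Their log2 fold changes differed, at 1.84 for Psmb9 and 0.89 for Tap1, by more than counting error, since the intervals did not overlap. In the deposited annotation the span of Psmb9 reaches past the start of Tap1, and 5.79% of the exon bases of Psmb9 and 3.87% of those of Tap1 are shared.

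Each inducible subunit takes the place of 1 constitutive subunit when a new proteasome is built, PSMB8 that of PSMB5, PSMB9 that of PSMB6 and PSMB10 that of PSMB7. Counts per kilobase of Psmb8 were 0.190 times those of Psmb5 in control cells (counting interval 0.172 to 0.210) and 0.790 times in TNF-α-treated cells (counting interval 0.740 to 0.844). For Psmb9 over Psmb6 the ratios were 0.0389 and 0.103, and for Psmb10 over Psmb7 they were 0.185 and 0.487. The ratio was thus higher with TNF-α by 4.16-fold for Psmb8 (counting interval 3.68 to 4.70), by 2.64-fold for Psmb9 (counting interval 2.14 to 3.26) and by 2.63-fold for Psmb10 (counting interval 2.26 to 3.06). These changes depend neither on the scaling between libraries nor on gene length. The ratios themselves do depend on length. With the longest coding transcript in place of the summed exons, Psmb8 was 1.37 times Psmb5 in TNF-α-treated cells, so which of the 2 subunits was more abundant there depends on the length used.

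**Figure D3:**
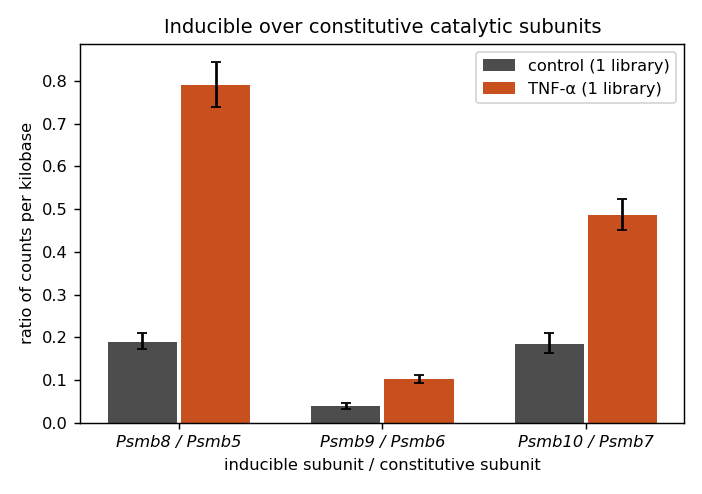
Counts per kilobase of each inducible catalytic subunit divided by those of the constitutive subunit it replaces, in control cells (grey) and TNF-α-treated cells (orange), with 95% counting intervals. Each orange bar exceeds its grey neighbour, and Psmb8 over Psmb5 reaches 0.790 with TNF-α.

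NLRC5 is the transactivator that joins the factors bound at class I promoters and acts on the heavy chain, B2m, Tap1 and Psmb9 genes. Nlrc5, on chromosome 8 from 94434356 to 94527272, had 182 counts in control cells and 764 in TNF-α-treated cells, or 4.08 CPM and 14.3 CPM. Its log2 fold change was 1.80 (counting interval 1.57 to 2.05). That interval overlapped those of H2-K1 and Psmb9, lay above those of H2-D1 and Tap1, and lay under that of B2m.

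Per kilobase of summed exon, the order of levels was similar in both libraries. In control cells it ran from H2-K1 at 193 CPM per kilobase through H2-D1 at 90.5, B2m at 34.8, Tapbp at 25.6, Tap2 at 11.4, Psmb8 at 5.003, Tap1 at 3.75, Psmb10 at 3.36 and Psmb9 at 0.767 down to Nlrc5 at 0.481. The counting intervals of Tap1 and Psmb10 overlapped there. In TNF-α-treated cells H2-K1 stood at 635 CPM per kilobase, H2-D1 at 259, B2m at 168, Tapbp at 41.8, Tap2 at 22.3, Psmb8 at 21.5, Psmb10 at 9.87, Tap1 at 6.94, Psmb9 at 2.77 and Nlrc5 at 1.69. Tap1 and Psmb10 had changed places, and the intervals of Tap2 and Psmb8 overlapped.

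Other genes of the pathway were read from lists given by name, with 63 genes in 6 lists, all compared. Of these 63, 3 passed 2-fold upward and 0 downward, beside 8.56% higher among all genes compared and 4.01% among genes with at least 200 counts, which all 63 had. The 3 were Irf1, Psmg1 and Tnfrsf1b. Beside the 7 of 10 class I antigen processing genes past 2-fold, this is a description with no test.

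In the endoplasmic reticulum, 6 genes of loading and folding had a median log2 fold change of 0.17, and 0 of them passed 2-fold. Tapbpl, a tapasin-like peptide editor, was highest with 1563 and 3693 counts in control and TNF-α-treated cells, a log2 fold change of 0.98 (counting interval 0.89 to 1.07). The general chaperones Calr, Canx and Pdia3, which also serve many other glycoproteins, had log2 fold changes of 0.22, 0.17 and 0.16. The lowest was Bcap31, an export receptor, at 0.02. Among 8 peptide trimming genes the median was -0.02 and 0 passed 2-fold. Erap1, the aminopeptidase that trims peptides to class I length inside the endoplasmic reticulum, stood apart from the other 7 with 1106 and 2486 counts, a log2 fold change of 0.91 (counting interval 0.81 to 1.01). The lowest was Lnpep, an endosomal aminopeptidase, at -0.21.

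Of 9 genes for proteasome activators and assembly, 1 passed 2-fold, with a median log2 fold change of 0.16. That gene was Psmg1, an assembly chaperone, with 563 and 1371 counts and a log2 fold change of 1.02 (counting interval 0.88 to 1.17). Psme1 and Psme2, which encode the PA28 activator that cytokines induce, had log2 fold changes of 0.53 (counting interval 0.50 to 0.56) and 0.62 (counting interval 0.56 to 0.68), while Psme3 of the nuclear activator stood at 0.20. Psmg2 was lowest at -0.20. Of the 14 constitutive 20S subunit genes, 0 passed 2-fold, and they ranged from -0.12 for Psmb4 to 0.46 for Psmb6, with a median of 0.17. Psmb5 and Psmb7 stood at 0.05 and 0.16. Exons of Psmb5 and Psmb7 overlap those of Mir686 and Nek6 over 12.5% and 11.8% of their bases.

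**Figure D4:**
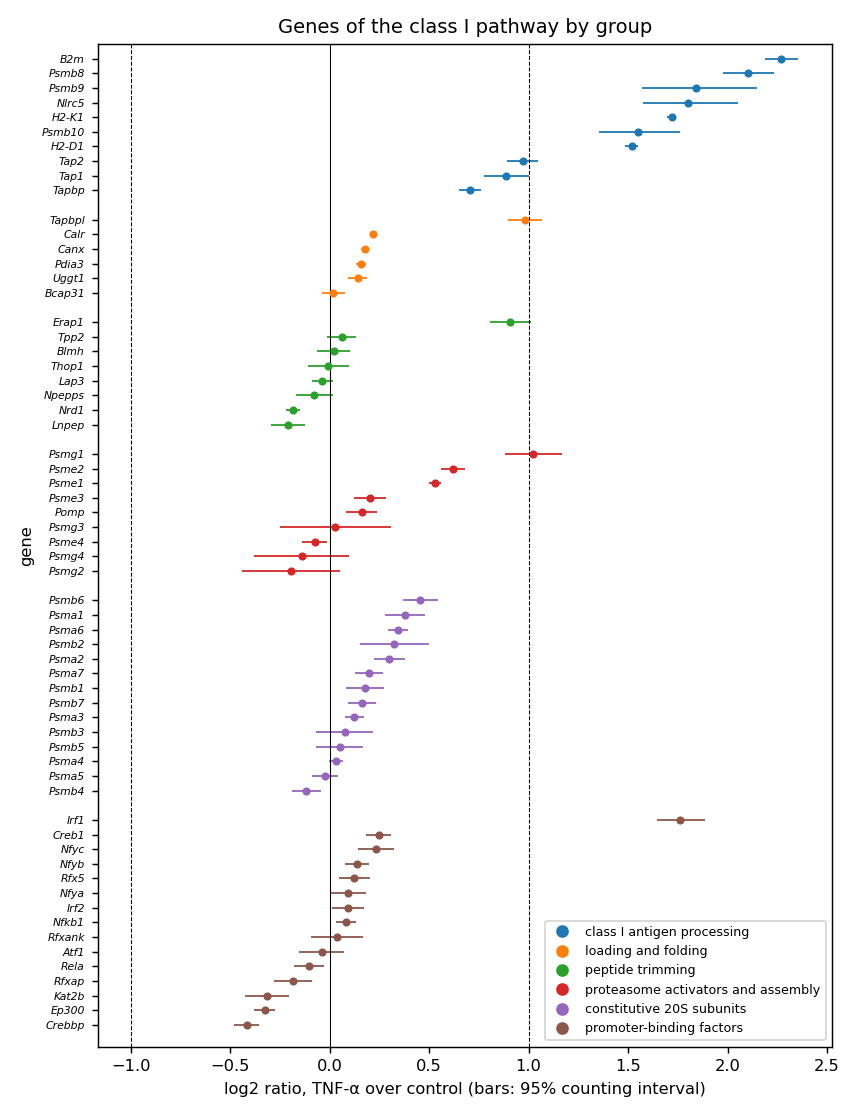
Log2 fold change of TNF-α over control for the 10 class I antigen processing genes and 5 other groups of pathway genes, with 95% counting intervals and dashed lines at 2-fold. Points of the 14 constitutive 20S subunits lie between -0.12 and 0.46, all left of the 10 class I antigen processing genes.

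Among 15 genes for factors that bind class I promoters or their coactivators, 1 passed 2-fold and the median log2 fold change was 0.08. Irf1, an interferon regulatory factor that is itself an NF-κB target, had 718 and 2923 counts in control and TNF-α-treated cells, a log2 fold change of 1.76 (counting interval 1.65 to 1.89). Rfx5, Rfxap and Rfxank of the RFX complex, with which NLRC5 works, stood at 0.12, -0.18 and 0.04, and the NF-κB subunit genes Nfkb1 and Rela at 0.08 and -0.10. Rfx5 and Rfxank share 26.8% and 33.8% of their exon bases with genes on the opposite strand. Thus the transcripts of Nlrc5 and Irf1 were more than 2-fold higher, and those of the RFX genes, Nfkb1 and Rela stayed within 2-fold. Crebbp, a coactivator, was lowest at -0.42.

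A list of 11 genes held TNF and interferon receptors, their kinases and the factors Stat2 and Irf9, and 1 of them passed 2-fold, with a median log2 fold change of 0.48. Tnfrsf1b, which encodes TNF receptor 2, had 18 and 207 counts, a log2 fold change of 3.14 (counting interval 2.57 to 4.05), while Tnfrsf1a, for TNF receptor 1, was lowest at -0.35. The interferon-γ receptor genes Ifngr1 and Ifngr2 stood at 0.96 and 0.76, and Jak2 at 0.68. Transcripts of interferons themselves were near absent from the counts. The 21 interferon genes summed to 6 counts in control cells and 8 in TNF-α-treated cells, and 17 of them had 0 counts in both. Ifng and Ifnb1 were among those at 0, which by a limit of 3 counts allows up to 0.0673 CPM in control cells and 0.0562 CPM in TNF-α-treated cells.

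Nonclassical class I genes encode close relatives of the heavy chains with limited variation and, in part, special ligands. Of 25 listed nonclassical and class I-like genes, 23 had a row, 18 were compared, and 9 passed 2-fold upward, against 8.56% of all genes compared. None of the 18 was more than 2-fold lower, and their median log2 fold change was 0.99. H2-Q6 had 135 counts in control cells and 4823 in TNF-α-treated cells, a log2 fold change of 4.88 (counting interval 4.65 to 5.16). H2-Q7, of the Qa-2 group like H2-Q6, had 70 and 1864 counts, a log2 fold change of 4.44 (counting interval 4.13 to 4.84). These ratios were larger than that of any of the 10 class I antigen processing genes. H2-Q6 stood at 3.03 CPM in control cells and 90.4 CPM in TNF-α-treated cells.

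H2-Q4 had 781 and 4342 counts, a log2 fold change of 2.21 (counting interval 2.10 to 2.33), with 19.1% of its exon bases shared with Gm11131. H2-T10 and H2-M3 had log2 fold changes of 1.71 (counting interval 1.35 to 2.12) and 1.07 (counting interval 0.88 to 1.27). H2-T10 shares 27.1% of its exon bases with BC023719 on the opposite strand, which had a log2 fold change of 2.33. H2-M3 presents formylated peptides. H2-M2 had 2 counts in control cells and 174 in TNF-α-treated cells, with a 95% interval of the log2 fold change from 4.31 to 9.24. The other 3 past 2-fold were H2-Q1, H2-Q2 and Cd1d2, each with at most 123 counts in either library. H2-T23, which encodes Qa-1, the ligand of NKG2A receptors, had the highest level of the list with 87.9 CPM and 123 CPM, and a log2 fold change of 0.48 (counting interval 0.43 to 0.54). H2-T24 was lowest at -0.62 (counting interval -0.97 to -0.28). The class I-like genes for MR1, the neonatal Fc receptor and HFE, which do not present peptides to CD8 T cells, stood at -0.16, -0.37 and 0.15. Of the CD1 genes, whose products present lipids, Cd1d1 stood at 0.45 (counting interval 0.26 to 0.65), within 2-fold, and Cd1d2, with 5 and 25 counts, at 1.73 (counting interval 0.65 to 3.804). Reads of the H2-Q and H2-T genes can be shared between near copies, so the split between single genes is uncertain.

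**Figure D5:**
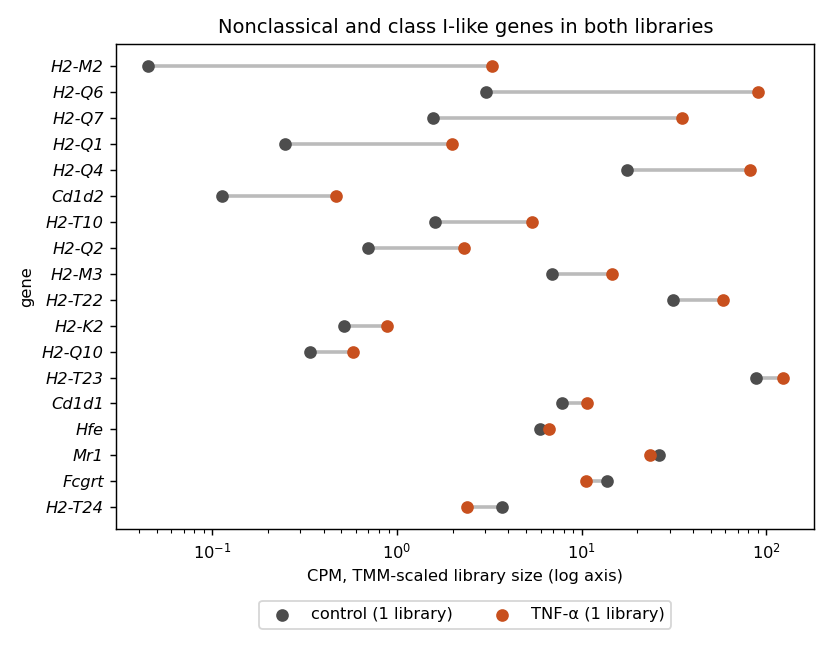
Level (CPM with TMM-scaled library sizes, log axis) of the 18 nonclassical and class I-like genes compared, in control cells (grey) and TNF-α-treated cells (orange), ordered by log2 fold change. H2-Q6 moves from 3.03 to 90.4 CPM, while Mr1, Fcgrt and H2-T24 lie lower with TNF-α.

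The cell type labels were checked against marker genes. All 10 basal markers were counted, summing to 12810 CPM in control cells and 11666 CPM in TNF-α-treated cells, with Krt14 most abundant at 5155 and 4871 CPM. Oxtr alone was more than 2-fold lower, with a log2 fold change of -1.19. All 10 luminal markers were counted too, summing to 3680 and 2611 CPM, with Krt8 most abundant at 1213 and 1132 CPM. Each of the 10 luminal markers was lower with TNF-α, and Pgr, Esr1 and Prlr were more than 2-fold lower, with log2 fold changes of -1.54, -1.48 and -1.15. The cultures thus held transcripts of both epithelial lineages, and the luminal share of counts was smaller with TNF-α. Its part in the values of the class I antigen processing genes was not tested.

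Leukocytes carry much MHC class I, and their markers were low in both libraries. The 27 markers summed to 833 counts in control cells and 991 in TNF-α-treated cells, or 18.7 and 18.6 CPM, a log2 fold change of -0.0092 (counting interval -0.14 to 0.13). Within that sum the pan-leukocyte markers were higher with TNF-α, at a log2 fold change of 0.26 (counting interval 0.087 to 0.44), and the macrophage and dendritic cell markers lower, at -0.42 (counting interval -0.64 to -0.21). Lcp1 gave 8.57 and 10.0 CPM of the leukocyte sum. Vav1 was more than 2-fold higher with 8 and 30 counts, and C1qa had 8 and 3 counts. Of the T and NK cell markers Cd3e, Cd3d, Cd3g, Nkg7 and Ncr1 had 0 counts in both libraries, the B cell marker Ms4a1 likewise, and the macrophage marker Adgre1 had 0 and 2. The part of leukocyte transcripts in the class I values was not tested. Endothelial markers summed to 7.07 and 6.75 CPM, with Pecam1 most abundant in control cells and Cdh5 in TNF-α-treated cells. The 6 fibroblast markers summed to 499 and 486 CPM, with Col1a2 most abundant, and Dcn was more than 2-fold higher at a log2 fold change of 1.39. The part of fibroblast-type transcripts in the class I values was not tested.

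By nearness of log2 fold change to the median of the 10 genes, over 2 libraries and among 9345 genes with at least 1000 counts, the most similar other genes were Trf, Ifi204 and Cyba, at 1.63, 1.64 and 1.65. With 2 libraries such likeness is a single number.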

How the data were processed

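RNA was taken from 3D cultures of sorted mouse mammary basal cells, 1 control and 1 with TNF-α, and sequenced on a HiSeq X 10. The authors deposited raw read counts for each gene together with exon coordinates and summed exon length in the layout of featureCounts. The submitters' processing notes name GRCm38 (mm10), and 90.9% of 47240 gene names shared with GENCODE M21 had the same span there, as had 7 of the 10 genes reported. The aligner, counting tool and read filters were not given in the sources used here. Even counts were in excess (2350 genes with 2 counts against 645 with 1 in the TNF-α library), so the counting intervals may be too narrow. Halved counts were an alternative for fold changes and calls only. The intervals were not recomputed from them, so their width was not checked.

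TMM sizes came from edgeR 4.0.16 (R 4.3.3) with a treated to control ratio of 1.20. Ratios, intervals, motif searches and figures were made with scipy 1.17.1, biopython 1.88, pandas 2.3.3, matplotlib 3.10.9 and numpy 2.4.6 under Python 3.11.15. A gene was called higher or lower past 2-fold. No p-value was computed, as each group had 1 library. The counting intervals have a level of 95%. Intervals of levels per kilobase are exact Poisson intervals, and changes of the subunit ratios have exact conditional intervals. The steps were tested on simulated data.

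The 10 genes and the lists were chosen with earlier results of these data known. Named are the 10 genes, the highest and lowest gene of each list, up to 6 genes past 2-fold per list, Psmb5, Psmb6, Psmb7 and the 3 nearest genes. From the list of promoter-binding factors 1 gene is not reported here and enters no count of that list. Other genes were named after their values were seen. Alternatives were total counts, DESeq2 1.42.0 size factors, upper quartile scaling, and other prior counts, filters, folds and lengths.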

Additional observations from a re-analysis of the deposited data

How the results depend on the processing

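No paired analysis was possible because each group had 1 library, and no library could be left out. The same 7 genes stayed more than 2-fold higher under 3 other scalings, prior counts of 0.5 and 5, halved counts and 3 other filters, and the median log2 ratio lay between 1.63 and 1.67 under 11 alternatives. Of the 4 genes whose exons overlap no other gene, H2-K1, H2-D1, B2m and Psmb10, all were more than 2-fold higher. All 60 single-gene values stayed inside their counting interval. These settings were a weak check. Each of the 10 genes had at least 666 counts over both libraries, so none of the filters could remove one. Prior counts and halving could move such ratios only slightly, and the scalings gave similar library sizes. A fold of 1.5 gave 10 of 10 genes higher, 10 of 63 other pathway genes and 15.5% of all genes. A fold of 4 gave 2 (B2m and Psmb8), 1, 5 nonclassical genes and 2.60%. With at least 200 counts, 5 of 12 nonclassical genes and 4.01% of all genes were higher. The share of all genes was 9.10% and 6.98% with prior counts of 0.5 and 5, 6.68% with halved counts, 9.88% with no filter and 5.36% with at least 1 CPM.

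Ratios of levels between subunits rest on the length used. Without division by length, Psmb8 over Psmb5 was 0.597 in the control and 2.48 with TNF-α, Psmb9 over Psmb6 0.0761 and 0.201, and Psmb10 over Psmb7 0.0923 and 0.243. With the longest coding transcript, chosen after seeing the data, they were 0.330 and 1.37, 0.0449 and 0.118, and 0.0816 and 0.215. Among the 10 genes, Psmb9 and Nlrc5 had the fewest counts, and the spread between cultures was not measured.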
